A study of Homo sapiens with 39 samples.

Results

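The 10 genes examined here are landmarks of the epithelial and the mesenchymal cell state: CDH1, EPCAM, KRT8 and KRT18 on the epithelial side, CDH2, VIM and FN1 on the mesenchymal side, and SNAI2, ZEB1 and TWIST1 as transcription factors. They were taken by name from a table of 63187 genes, with earlier results of these data known, and are described across all 13 groups of the series. RNA was sequenced from C4-2B cells, a line of castration-resistant prostate cancer. In the panel, cells received DMSO as vehicle, the PARP inhibitor olaparib (1 µM) or talazoparib (10 nM), the androgen pathway drug abiraterone acetate (5 µM) or enzalutamide (20 µM), or the pairs abiraterone acetate and olaparib or enzalutamide and talazoparib at the same doses, all for 5 days. In a separate time course, cells received DMSO, 1 µM olaparib or 5 µM olaparib for 1 or 5 days. Each group had 3 libraries, which makes 21 libraries in the panel and 18 in the time course. All groups are 1 unmodified cell line grown as a monoculture in serum-containing medium, so neither stroma nor a second prostate line is represented. The labels do not say whether the 3 libraries of a group came from separate cultures, and the p-values measure only the spread between these libraries.

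Epithelial cells hold together through E-cadherin (CDH1) and EPCAM at their contacts and through the paired filament proteins keratin 8 and keratin 18. In an epithelial-mesenchymal transition these proteins give way to N-cadherin (CDH2), the filament protein vimentin (VIM) and the matrix protein fibronectin (FN1). The zinc finger factors Slug (SNAI2) and ZEB1 and the helix-loop-helix factor TWIST1 drive the programme and repress CDH1, with SNAI2 and ZEB1 binding E-box sequences. Abiraterone blocks androgen synthesis and enzalutamide blocks the cell's response to androgen, and both are called ARPi here. Olaparib and talazoparib are PARP inhibitors (PARPi), which trap a DNA repair enzyme on damaged DNA.

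FN1 and VIM were the mesenchymal genes with measurable RNA whose levels changed in most groups, so the 250 bases before their start sites are shown. Sequences are from RefSeq (GRCh38.p14), whose promoter table matched 5 of the 10 genes (FN1, VIM, ZEB1, KRT8 and CDH2). FN1 is read from chr2:215436069-215436318 on the minus strand and VIM from chr10:17227991-17228240 on the plus strand. Capitals mark every match on either strand to CACCTG (the E-box bound by SNAI and ZEB factors), TGANTCA (the AP-1 motif), TGACGTCA (the cyclic AMP response element) and GGGCGG (the SP1 box).
FN1: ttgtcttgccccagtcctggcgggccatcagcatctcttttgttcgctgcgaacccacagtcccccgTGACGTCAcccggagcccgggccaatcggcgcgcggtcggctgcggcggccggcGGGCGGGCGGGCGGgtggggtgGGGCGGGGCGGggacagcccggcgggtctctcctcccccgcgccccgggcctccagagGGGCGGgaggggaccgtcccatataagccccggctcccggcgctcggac
VIM: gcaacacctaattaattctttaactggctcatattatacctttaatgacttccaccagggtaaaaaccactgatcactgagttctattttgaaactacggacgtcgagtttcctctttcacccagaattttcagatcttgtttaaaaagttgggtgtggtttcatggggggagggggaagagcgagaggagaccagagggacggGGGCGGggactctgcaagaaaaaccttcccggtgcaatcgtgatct
Within these 250 bases, the FN1 promoter held TGACGTCA once, 183 bases before the start, and GGGCGG 6 times, of which some overlap. The VIM promoter held GGGCGG once, 46 bases before the start. Neither held CACCTG or TGANTCA. Of 35116 promoter windows of this length, 1.65% held TGACGTCA, 42.6% GGGCGG, 17.5% CACCTG and 6.57% TGANTCA.

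The deposited values are estimated counts per gene, which added up to between 26932205 and 49833473 per panel library and between 34214001 and 44893664 per time-course library. Levels are given as CPM, counts scaled to the size of the library with TMM factors. In bulk RNA, fewer cells that express a gene and less RNA per cell cannot be told apart. The cells carried luminal prostate RNA, with the group means of 10 of 10 luminal markers above 1 CPM in every group and a summed level of 3750 to 5940 CPM per library. Fibroblast markers summed to between 12.2 and 25.1 CPM, most of it from COL1A1 at no more than 22.1 CPM. PDGFRB had 37 to 109 counts per library (up to 2.43 CPM). FBLN1 reached 41 counts, COL3A1 29, THY1 10 and PDGFRA 3, while DCN, LUM, FAP and COL1A2 did not exceed 2 counts in any library. Basal (13.5 to 26.7 CPM), endothelial (8.07 to 22.9 CPM) and leukocyte (3.09 to 31.1 CPM) lists were far below the luminal one, and each had between 1 and 3 of its 6 genes above 1 CPM in a group. Most of the basal sum came from DST (up to 26.1 CPM), of the endothelial sum from VWF (up to 22.5 CPM) and of the leukocyte sum from CD68 (up to 29.6 CPM), with at most 85 counts of KRT15 and 61 of LYZ in any library, while KRT5, TP63, KDR and CD3E did not exceed 2 counts. As a check of the treatments, KLK3, the androgen-induced gene that encodes PSA, was at 1450.1 CPM in DMSO, 485 CPM with abiraterone and 304 CPM with enzalutamide, and CDKN1A, a p53 target, was at 54.1 CPM in DMSO and 244 CPM with olaparib.

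In DMSO, C4-2B cells had the RNA profile of epithelial cells that also transcribe some mesenchymal genes. Per kilobase of canonical transcript, the panel DMSO libraries held 189 ± 1.8 CPM of KRT18, 144 ± 1.3 CPM of KRT8, 109 ± 2.6 CPM of CDH1 and 58.8 ± 0.68 CPM of EPCAM (SD, n = 3). FN1 stood at 23.2 ± 0.52 CPM per kilobase, VIM at 8.54 ± 1.36 and SNAI2 at 5.75 ± 0.54. On this scale each epithelial gene lay above each mesenchymal gene. KRT18 was at the 98.6th percentile of 18490 genes, FN1 at the 83.3rd, VIM at the 64.5th and SNAI2 at the 56.7th.

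**Figure D1:**
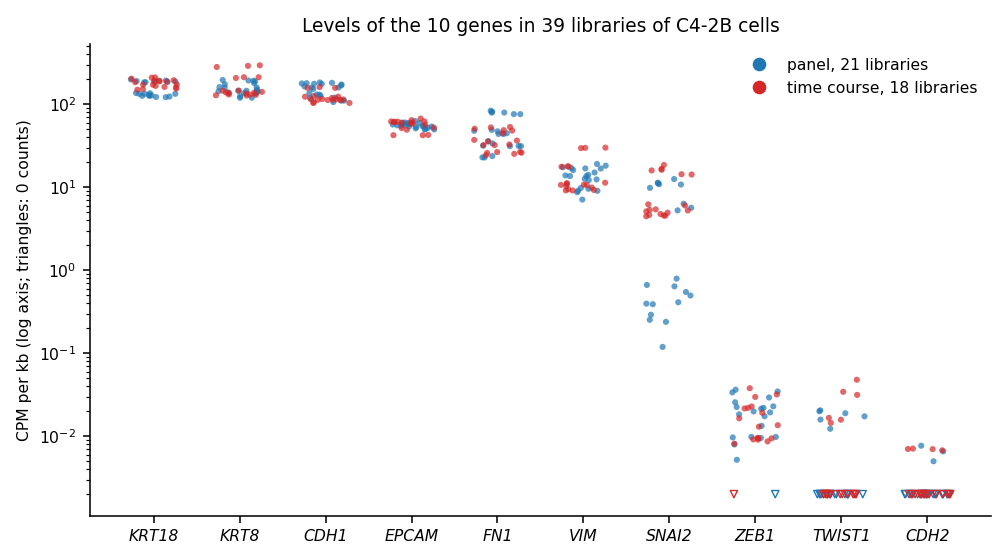
Levels of the 10 genes (x axis) in CPM per kilobase of canonical transcript on a log axis (y axis), with 1 point per library, blue for the 21 panel libraries and red for the 18 time-course libraries, and open triangles at the bottom for libraries with 0 counts. KRT18, KRT8 and CDH1 lie highest, the ranges of EPCAM and FN1 overlap, SNAI2 splits into separate levels, and ZEB1, TWIST1 and CDH2 lie near or at 0 throughout.

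The N-cadherin gene CDH2 and the factors ZEB1 and TWIST1 were at or near 0 in every group. CDH2 (ENSG00000170558.10, chr18:27932879-28177946, minus strand) had 7 counts over all 39 libraries, with 32 libraries at 0 and none above 1. TWIST1 (ENSG00000122691.13, chr7:19020991-19117636, minus strand) had 16 counts in all, 27 libraries at 0 and a highest value of 3. ZEB1 (ENSG00000148516.23, chr10:31318495-31529814, plus strand) had 152 counts in all, between 0 and 10 per library with a median of 4. No treatment brought any of them past the filter on low counts, so they have no test. The other 7 genes passed the filter in both experiments and are the members counted below.

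Of these 7 genes, 7 passed the test with abiraterone against DMSO (edgeR's quasi-likelihood test, adjusted p under 0.05 over all genes tested), where 52.9% of all 18625 genes did. Enzalutamide had 5 past the test (53.3% of all genes), talazoparib 5 (33.8%) and olaparib 5 (35.6%). The combination of enzalutamide and talazoparib had 6 (62.4%) and that of abiraterone and olaparib 7 (62.2%). With backgrounds this high the counts say little, and the sizes and directions are given gene by gene. In every one of these 6 comparisons CDH1 and FN1 rose, while SNAI2 fell wherever an ARPi was present and rose with a PARPi alone.

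CDH1 (ENSG00000039068.20, chr16:68737292-68835537, plus strand) encodes E-cadherin, the main adhesion protein of epithelial junctions. The 3 DMSO libraries of the panel held 532, 533 and 511 CPM. The abiraterone libraries held 737, 766 and 766 CPM, and the enzalutamide libraries 833, 790 and 813 CPM. All ARPi values therefore lay above all DMSO values, with log2 fold changes of 0.53 ± 0.025 (SE) and 0.63 ± 0.025, by edgeR's quasi-likelihood test (adjusted p 5.65e-19 and 3.06e-21). The olaparib libraries held 655, 628 and 631 CPM and the talazoparib libraries 578, 572 and 609 CPM, also without overlap with DMSO, and the log2 fold changes were 0.28 and 0.16. The combinations were highest, at 851 ± 5.9 CPM for abiraterone plus olaparib and 873 ± 8.7 CPM for enzalutamide plus talazoparib (SD, n = 3). From lowest to highest the order was DMSO, talazoparib, olaparib, abiraterone, enzalutamide, abiraterone plus olaparib and enzalutamide plus talazoparib, and no neighbours in that order overlapped.

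EPCAM (ENSG00000119888.11, chr2:47345158-47387601, plus strand), an epithelial surface adhesion molecule, moved little and in the other direction. It was at 91 ± 1.1 CPM in DMSO, 81.3 ± 2.7 CPM with abiraterone and 77.3 ± 0.88 CPM with abiraterone plus olaparib (SD, n = 3). By edgeR's quasi-likelihood test it fell under abiraterone (log2 fold change -0.16 ± 0.038, adjusted p = 0.000431) and under both combinations, with -0.23 ± 0.038 for the one with olaparib (1.73e-06) and -0.13 ± 0.037 for the one with talazoparib (0.00273). With enzalutamide, olaparib and talazoparib alone the log2 differences were -0.05, -0.07 and 0.02, none past the test. The olaparib difference passed with total count scaling (-0.11, adjusted p = 0.0118) and in the fit of the compared groups (-0.09, 0.0427). The 2 adhesion genes thus differed in direction: CDH1 was highest in the combinations and EPCAM lowest with abiraterone plus olaparib.

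**Figure D2:**
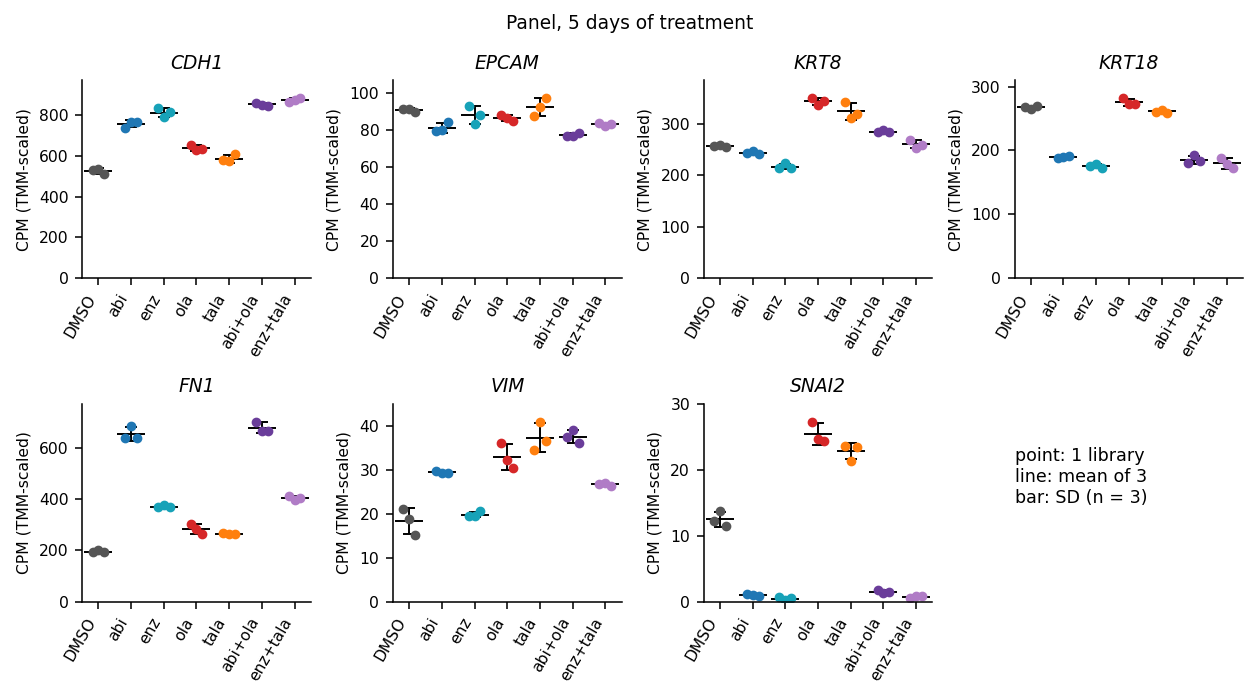
TMM-scaled CPM (y axes, starting at 0) of the 7 measurable genes in the panel, by treatment (x axes), with 1 point per library, a line at the mean of 3 libraries and a bar for the SD. CDH1 and FN1 are above DMSO under every treatment, and SNAI2 lies near 0 in the 4 groups that received an ARPi and above DMSO in the 2 groups that received a PARPi alone.

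The paired keratins did not move as a pair. KRT8 (ENSG00000170421.13, chr12:52897187-52949954, minus strand) and KRT18 (ENSG00000111057.11, chr12:52948871-52952906, plus strand) encode the type II and type I subunits of the same filament. KRT18 was at 268, 265 and 270 CPM in DMSO, 189, 189 and 192 CPM with abiraterone and 175, 178 and 173 CPM with enzalutamide. It fell by 0.49 ± 0.029 and 0.61 ± 0.029 on the log2 scale, with no overlap between the ARPi and DMSO libraries (edgeR's quasi-likelihood test, adjusted p 1.22e-16 and 3.01e-19). With olaparib and talazoparib KRT18 stayed at 275 ± 5.5 and 261 ± 1.8 CPM, log2 differences of 0.04 and -0.03 that did not pass the test, although the second passed with total count scaling (-0.08, adjusted p = 0.028).

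KRT8 instead rose with PARPi. It was at 256, 260 and 255 CPM in DMSO, 350, 337 and 345 CPM with olaparib and 343, 311 and 320 CPM with talazoparib. These values do not overlap, and the log2 fold changes were 0.42 ± 0.029 and 0.34 ± 0.029 (edgeR's quasi-likelihood test, adjusted p 5.68e-14 and 1.91e-11). With enzalutamide KRT8 fell by 0.24 on the log2 scale (7.26e-09). With abiraterone the change was -0.07 (adjusted p = 0.0346), a call lost with RLE scaling (0.0561), with total count scaling (0.921), without the low-count filter (0.216), in a fit of the compared groups alone (0.0778), and without DMSO replicate B (0.0979), abiraterone replicate A (0.131) or abiraterone replicate C (0.155). KRT8 rose with abiraterone plus olaparib (0.15) and was at 0.02 with enzalutamide plus talazoparib, which did not pass.

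Taken per kilobase, the ratio of KRT8 to KRT18 needs no library scaling and was higher than in DMSO under all 6 treatments without overlap. The DMSO libraries stood at 0.758, 0.777 and 0.75. The means of the single drugs were 0.985 for talazoparib, 0.989 for olaparib, 0.981 for enzalutamide and 1.02 for abiraterone. The combinations gave 1.22 ± 0.033 and 1.15 ± 0.042 (SD, n = 3), above every single-drug library. An exact permutation test of 3 libraries against 3 (two-sided) gave p = 0.1 for each of the 6 comparisons, which is the smallest it can give. The gene models of KRT8 and KRT18 overlap by 1084 bases on opposite strands, and the libraries were stranded, but whether strand was used in counting is not given in the sources used here. KRT8 and KRT18 also have 51 and 68 annotated copies elsewhere, whose summed counts came to 1.1% to 3.43% of KRT8 and 0.207% to 0.762% of KRT18.

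**Figure D3:**
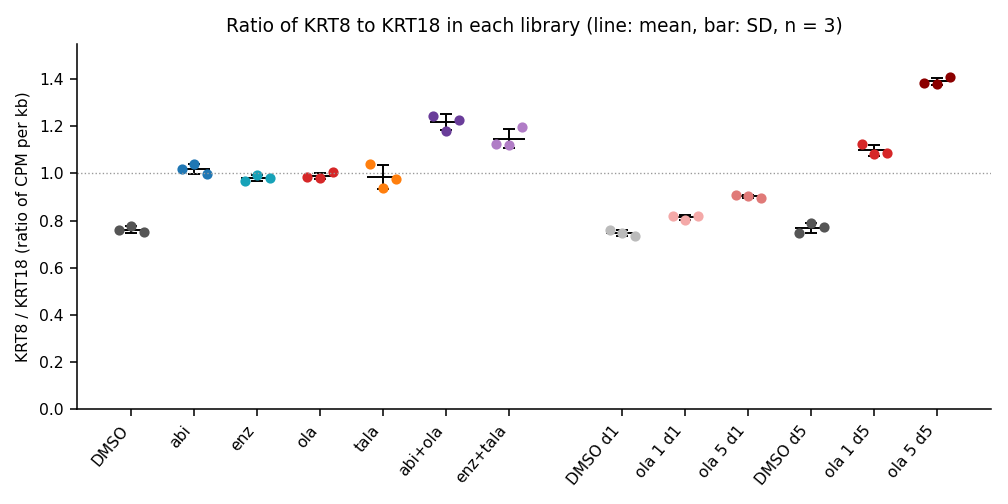
Ratio of KRT8 to KRT18, each in CPM per kilobase (y axis, starting at 0, dotted line at 1), in the 7 panel groups and the 6 time-course groups (x axis), with 1 point per library, a line at the mean and a bar for the SD (n = 3). The ratio is lowest in the DMSO groups, at 0.747 to 0.77 on average, and highest with 5 µM olaparib at day 5, at 1.39.

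Fibronectin RNA rose in every treated group of the panel, most in the 2 groups that received abiraterone. FN1 (ENSG00000115414.21, chr2:215360440-215436073, minus strand), whose promoter is shown above, encodes an adhesive glycoprotein of the extracellular matrix. It was at 192, 199 and 192 CPM in DMSO, 639, 684 and 638 CPM with abiraterone and 367, 376 and 368 CPM with enzalutamide. The log2 fold changes were 1.75 ± 0.036 and 0.93 ± 0.035 (edgeR's quasi-likelihood test, adjusted p 2e-24 and 2.77e-18). With olaparib it was at 302, 283 and 264 CPM and with talazoparib at 266, 263 and 263 CPM, log2 fold changes of 0.54 and 0.44. In order of level, DMSO was lowest, followed by talazoparib and olaparib, whose values overlapped, then enzalutamide, enzalutamide plus talazoparib (404 ± 8 CPM), abiraterone, and abiraterone plus olaparib (678 ± 21 CPM), of which the last pair overlapped. The summed fibroblast list, mostly COL1A1, was at 12.2 to 16.4 CPM in DMSO, 20.7 to 22.4 CPM with abiraterone, 21 to 21.8 CPM with enzalutamide, 17.3 to 18.8 CPM with olaparib, 15.7 to 17.2 CPM with talazoparib, 23.7 to 25.1 CPM with abiraterone plus olaparib and 24 to 24.8 CPM with enzalutamide plus talazoparib. The summed endothelial list, mostly VWF, was at 14.2 to 16.5 CPM in DMSO, 21 to 21.6 CPM with abiraterone, 20.5 to 22.9 CPM with abiraterone plus olaparib, 11.7 to 12.9 CPM with enzalutamide, 13.5 to 15.1 CPM with olaparib, 13.2 to 14.5 CPM with talazoparib and 15.4 to 16.4 CPM with enzalutamide plus talazoparib. The part of either list in the FN1 result was not tested. By size of change, FN1 ranked 617th from the top among 18625 genes with abiraterone and 1733rd with olaparib.

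VIM (ENSG00000026025.16, chr10:17228241-17237593, plus strand), the other mesenchymal gene with measurable RNA, rose under 5 of the 6 treatments and was highest with abiraterone plus olaparib and with talazoparib, whose values overlapped. The DMSO libraries held 21.1, 18.8 and 15.3 CPM, a wider relative spread than for the other 6 genes. The olaparib libraries held 36.2, 32.4 and 30.4 CPM and the talazoparib libraries 34.7, 41.1 and 36.7 CPM. All lay above DMSO, with log2 fold changes of 0.86 ± 0.084 and 1.04 ± 0.082 (edgeR's quasi-likelihood test, adjusted p 3.73e-08 and 1.85e-09). Abiraterone gave 29.9, 29.4 and 29.3 CPM (log2 fold change 0.69), while enzalutamide gave 19.5, 19.5 and 20.7 CPM, within the DMSO range (0.13, adjusted p = 0.247). Without DMSO replicate C the enzalutamide difference was -0.00091, and without DMSO replicate A it was 0.23 with an adjusted p of 0.0199. VIM also rose in the combinations, by 1.05 for abiraterone plus olaparib and by 0.55 for the other pair. The summed leukocyte list, mostly CD68, was also higher under the PARPi alone, at 4.81 to 7.57 CPM in DMSO, 15.3 to 16.5 CPM with olaparib and 14 to 14.4 CPM with talazoparib. It was at 3.97 to 4.1 CPM with abiraterone and 5.29 to 7.88 CPM with abiraterone plus olaparib, where VIM was also higher. Its part in the VIM result was not tested.

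Among the 7 genes tested, SNAI2 had the largest log2 change in the panel. SNAI2 (ENSG00000019549.13, chr8:48917598-48921740, minus strand) encodes the repressor Slug. The DMSO libraries held 12.3, 13.8 and 11.5 CPM. Abiraterone brought it to 1.19, 1.08 and 0.862 CPM, which are 28 to 41 counts, and enzalutamide to 0.634, 0.259 and 0.551 CPM, which are 11 to 23 counts. These falls of 3.58 ± 0.14 and 4.74 ± 0.16 on the log2 scale (edgeR's quasi-likelihood test, adjusted p 2.11e-20 and 2.06e-22) placed SNAI2 100th and 99th from the bottom of 18625 genes. The PARPi moved it the other way, to 27.4, 24.7 and 24.4 CPM with olaparib and 23.7, 21.4 and 23.5 CPM with talazoparib. All 6 PARPi libraries exceeded all 3 DMSO libraries, and the log2 fold changes were 1.03 ± 0.097 and 0.87 ± 0.097 (adjusted p 2.61e-10 and 1.06e-08).

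In the combinations SNAI2 stayed near the ARPi level. It was at 1.73, 1.39 and 1.45 CPM with abiraterone plus olaparib and 0.52, 0.896 and 0.849 CPM with enzalutamide plus talazoparib. Against DMSO it fell by 3.04 ± 0.14 and 4.08 ± 0.15 on the log2 scale. The order of levels was enzalutamide, enzalutamide plus talazoparib and abiraterone, whose neighbours overlapped, then abiraterone plus olaparib, DMSO, talazoparib and olaparib, without overlap. CDH1, a known repression target of Slug, was above DMSO both in the groups where SNAI2 was lower and in those where it was higher.

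Drugs of the same class were also compared directly. Between enzalutamide and abiraterone 7 of the 7 genes passed the test, against 19.8% of all genes. The log2 difference, enzalutamide minus abiraterone, was -0.82 ± 0.034 for FN1, -0.57 ± 0.084 for VIM and -1.16 ± 0.25 for SNAI2 (edgeR's quasi-likelihood test, adjusted p 6.16e-16, 3.21e-05 and 0.000703). The remaining differences were 0.10 for CDH1, -0.12 for KRT18, -0.17 for KRT8 and 0.12 for EPCAM. The EPCAM call (0.0254) was lost in a fit of these groups alone (0.0535) and without abiraterone replicate A (0.128) or B (0.0861) or enzalutamide replicate A (0.207) or C (0.0632).

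Between talazoparib and olaparib, 1 of the 7 genes passed (8.36% of all genes). It was CDH1, with a log2 difference, talazoparib minus olaparib, of -0.12 ± 0.025 (adjusted p = 0.0021, edgeR's quasi-likelihood test). The log2 differences and SE of the others were 0.18 ± 0.076 for VIM, -0.16 ± 0.092 for SNAI2, 0.10 ± 0.037 for EPCAM, -0.10 ± 0.035 for FN1, -0.08 ± 0.029 for KRT8 and -0.08 ± 0.028 for KRT18. With DESeq2's Wald test the count was 4, with KRT18 (0.0319), KRT8 (0.0249) and FN1 (0.0235) added. It was 2 without the low-count filter, with VIM added (0.00683), 2 without olaparib replicate C, with FN1 added (0.00689), and 3 without talazoparib replicate A, with KRT8 (0.00399) and EPCAM (0.0242) added. The doses differ in unit, 1 µM of olaparib and 10 nM of talazoparib, so the comparison is of these doses and not of the drugs at equal dose.

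CDH1, KRT8 and VIM were higher with a PARPi added to an ARPi than with the ARPi alone, in both pairs. Against abiraterone alone, abiraterone plus olaparib had 4 of 7 genes past the test (29.2% of all genes): CDH1 at 0.17 ± 0.025, KRT8 at 0.22 ± 0.029, VIM at 0.35 ± 0.08 and SNAI2 at 0.53 ± 0.2 on the log2 scale. Against enzalutamide alone, enzalutamide plus talazoparib had 5 (34.4%): CDH1 at 0.10, FN1 at 0.12, KRT8 at 0.26, VIM at 0.43 and SNAI2 at 0.66 (0.33 without enzalutamide replicate B). With total count scaling EPCAM also passed, lower, in both (0.0374 and 0.024), and in the second it did so without enzalutamide replicate B (0.0128), as did KRT18, higher, without combination replicate C (0.0442). Both SNAI2 calls were narrow (edgeR's quasi-likelihood test, adjusted p 0.0419 and 0.042). The first was lost with total count scaling (0.0541), in the fit of these groups alone (0.0902), and without abiraterone replicate B (0.0767) or C (0.193) or combination replicate A (0.173), B (0.0529) or C (0.0669). The second was lost with a replicate block (0.0522), in the fit of these groups alone (0.133), and without enzalutamide replicate B (0.385) or combination replicate B (0.195) or C (0.122).

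Set against the PARPi, each combination had 7 of 7 genes past the test, against 56.6% and 58.8% of all genes. SNAI2 was -4.07 ± 0.13 with abiraterone plus olaparib against olaparib and -4.95 ± 0.14 with enzalutamide plus talazoparib against talazoparib. VIM differed in direction, at 0.19 in the first (adjusted p = 0.0425, edgeR's quasi-likelihood test) and -0.49 in the second. The first VIM call was lost without olaparib replicate B (0.086) or C (0.142) or combination replicate A (0.0631) or B (0.15). The EPCAM call was lost with total count scaling in both (0.0594 and 0.0762). KRT18 was at -0.57 and -0.54, FN1 at 1.26 and 0.61, and CDH1 at 0.42 and 0.57.

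Whether each combination departed from the sum of its drugs on the log2 scale was tested as an interaction, in which a value below 0 means less than the sum. For abiraterone and olaparib 4 of 7 genes passed (12.8% of all genes, and 8.08% in this direction), all below 0: VIM at -0.50 ± 0.12, FN1 at -0.49 ± 0.049, KRT8 at -0.20 ± 0.041 and CDH1 at -0.11 ± 0.036. For enzalutamide and talazoparib 2 passed (12.6%, and 7.28% in this direction), VIM at -0.61 ± 0.12 and FN1 at -0.32 ± 0.049. SNAI2, which the drug classes moved in opposite directions, was at -0.49 ± 0.22 and -0.21 ± 0.28, neither past the test. KRT18 passed in the second without combination replicate C (0.13, adjusted p = 0.0394). The CDH1 call (adjusted p = 0.0381, edgeR's quasi-likelihood test) was lost with total count scaling (0.0536), without the low-count filter (0.0883), in the fit of these groups alone (0.0542) and without any 1 of 8 of the 12 libraries: DMSO C (0.112), abiraterone B (0.0835) or C (0.0957), olaparib A (0.167) or C (0.063), or combination A (0.0676), B (0.075) or C (0.0715).

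The time course asked when the olaparib response appears and how it scales with dose. At day 1, 3 of 7 genes passed with 1 µM olaparib (15.8% of 18502 genes) and 4 with 5 µM (45%). At day 5, 6 passed with 1 µM (46.3%) and 7 with 5 µM (68.2%). Only the matrix gene FN1 had risen by more than 0.2 on the log2 scale after 1 day, while SNAI2, VIM, KRT8 and CDH1 had their large changes at day 5.

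**Figure D4:**
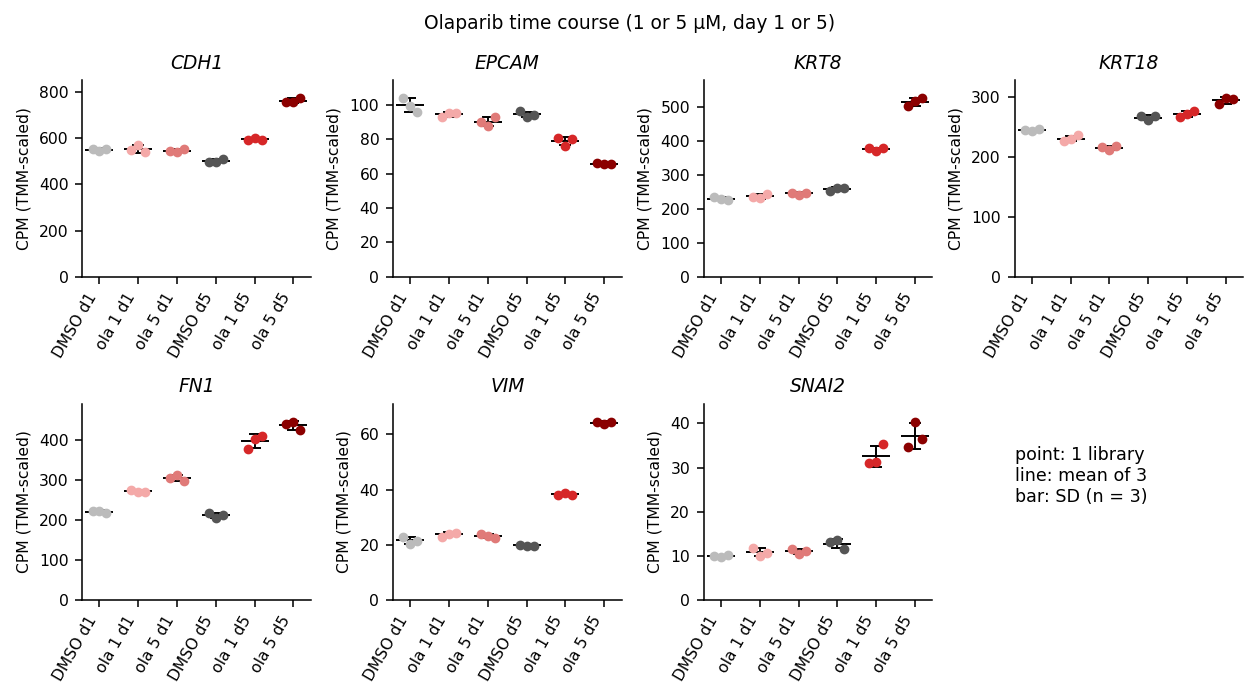
TMM-scaled CPM (y axes, starting at 0) of the 7 measurable genes in the time course, by olaparib dose (DMSO, 1 or 5 µM) and day (d1, d5) on the x axes, with 1 point per library, a line at the mean of 3 and a bar for the SD. VIM and KRT8 step up with dose at day 5 and lie close to DMSO at day 1, FN1 is already above DMSO at day 1, and EPCAM declines with dose.

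At day 1 FN1 was at 223, 224 and 217 CPM in DMSO, 275, 271 and 270 CPM with 1 µM and 306, 312 and 299 CPM with 5 µM. The groups were ordered by dose without overlap, with log2 fold changes of 0.30 ± 0.027 and 0.47 ± 0.027 (edgeR's quasi-likelihood test, adjusted p 3.04e-09 and 1.14e-14). At day 5 FN1 was at 218, 204 and 212 CPM in DMSO, 377, 404 and 409 CPM with 1 µM and 441, 447 and 425 CPM with 5 µM, log2 fold changes of 0.91 and 1.05. The step between the doses was 0.17 ± 0.027 at day 1 and 0.14 ± 0.027 at day 5. At day 1 the summed fibroblast list was at 14.2 to 14.8 CPM in DMSO, 17 to 17.8 CPM with 1 µM and 17.7 to 20.1 CPM with 5 µM, and the endothelial list at 10.4 to 11.4 CPM, 13 to 13.8 CPM and 13.3 to 15.3 CPM. At day 5 the fibroblast list was at 14.2 to 14.6 CPM, 16 to 16.5 CPM and 14.5 to 15 CPM, and the endothelial list at 10.5 to 10.8 CPM, 9.66 to 10.7 CPM and 8.07 to 9.38 CPM, while FN1 was further above DMSO than at day 1.

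VIM and KRT8 had the steepest dose steps at day 5. VIM was at 20, 19.7 and 19.7 CPM in DMSO, 38.1, 38.6 and 38 CPM with 1 µM and 64.3, 63.8 and 64.6 CPM with 5 µM. KRT8 was at 252, 260 and 261 CPM, 378, 370 and 378 CPM, and 502, 518 and 526 CPM in the same groups. None of these groups overlapped. The summed leukocyte list was ordered the same way, at 6.31 to 6.79 CPM, 16.8 to 18.4 CPM and 28.7 to 31.1 CPM, and its part was not tested. The log2 fold changes with 5 µM were 1.70 ± 0.038 for VIM and 1.00 ± 0.022 for KRT8, and the steps from 1 to 5 µM were 0.75 ± 0.035 and 0.46 ± 0.022 (edgeR's quasi-likelihood test, adjusted p 4.8e-20 and 1.15e-19).

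At day 1 VIM and KRT8 had barely moved. KRT8 was 0.04 with 1 µM, which did not pass except with total count scaling (0.0372), and 0.09 with 5 µM, which did (0.00109, edgeR's quasi-likelihood test). VIM was 0.15 with 1 µM (0.0153) and 0.10 with 5 µM (0.0542). The first VIM call was lost without DMSO replicate 2 (0.134) or 3 (0.0518) or olaparib replicate 2 (0.0521) or 3 (0.0824), and the second became a call without DMSO replicate 1 (0.00822) or olaparib replicate 3 (0.0323), with total count scaling (0.00373) and without the low-count filter (0.0486).

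SNAI2 had its large rise at day 5, with a small step between the doses. At day 1 it was at 9.93 ± 0.19 CPM in DMSO, and at 10.8 and 11 CPM with 1 and 5 µM, differences that did not pass the test. The 5 µM difference at day 1 passed with total count scaling (0.20, adjusted p = 0.0431) and without the low-count filter (0.16, 0.039). At day 5 it was at 13.1, 13.6 and 11.7 CPM in DMSO, 31, 31.3 and 35.4 CPM with 1 µM and 34.8, 40.4 and 36.4 CPM with 5 µM. The olaparib groups overlapped each other and not DMSO. The log2 fold changes were 1.35 ± 0.066 and 1.54 ± 0.066 (edgeR's quasi-likelihood test, adjusted p 2.61e-15 and 2.06e-17). The step between the doses was 0.19 ± 0.059 (0.00703), and it was lost with total count scaling (0.05) and without the 5 µM day 5 replicate 2 (0.0519).

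CDH1 and EPCAM again moved apart. At day 5 CDH1 was at 499, 498 and 510 CPM in DMSO, 594, 603 and 595 CPM with 1 µM and 760, 759 and 775 CPM with 5 µM. EPCAM was at 96.3, 92.9 and 94.2 CPM, 80.9, 76.4 and 79.9 CPM, and 66.1, 65.6 and 65.5 CPM in the same groups. Both genes were ordered by dose without overlap, CDH1 upward (log2 fold changes 0.25 and 0.61) and EPCAM downward (-0.26 and -0.52). At day 1 CDH1 was within 0.02 of DMSO on the log2 scale at both doses, and EPCAM was at -0.08 with 1 µM, not past the test except with DESeq2 (0.0433) or without DMSO replicate 3 (0.0239), and -0.15 with 5 µM (adjusted p = 8.85e-05, edgeR's quasi-likelihood test).

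KRT18 changed sign between the days. At day 1 it was at 244, 243 and 245 CPM in DMSO, 226, 229 and 235 CPM with 1 µM and 216, 212 and 218 CPM with 5 µM. It fell at both doses, by 0.08 ± 0.022 and 0.18 ± 0.022 on the log2 scale (edgeR's quasi-likelihood test, adjusted p 0.00622 and 1.06e-08). The 1 µM call was lost with total count scaling (0.0523) and without olaparib replicate 1 (0.0557). At day 5 it was at 267, 261 and 268 CPM in DMSO and 287, 298 and 296 CPM with 5 µM, a rise of 0.15 ± 0.022 (2.38e-07), with 0.03 at 1 µM, which did not pass. The ratio of KRT8 to KRT18 per kilobase was ordered by dose without overlap at both days, at 0.747 in DMSO, 0.813 and 0.903 at day 1 and at 0.77, 1.1 and 1.39 at day 5.

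Every one of these effects differed between the days. The interaction of olaparib with day passed for 7 of 7 genes at 1 µM, against 29.8% of all genes, and for 7 of 7 at 5 µM, against 54.9%. At 5 µM the day 5 effect exceeded the day 1 effect by 1.60 ± 0.058 for VIM, 1.39 ± 0.11 for SNAI2, 0.91 ± 0.032 for KRT8, 0.62 ± 0.027 for CDH1, 0.58 ± 0.039 for FN1 and 0.33 ± 0.031 for KRT18 on the log2 scale, and for EPCAM it was -0.38 ± 0.042. With total count scaling the median of all genes in this interaction was -0.153, against -0.0223 with TMM. At 1 µM the KRT18 interaction was lost with total count scaling (0.0831). The dose step passed for 2 of 7 genes at day 1 (FN1 and KRT18, 28.8% of all genes, with KRT8 added by total count scaling at 0.00563 or without 1 µM replicate 3 at 0.0204, and EPCAM without 5 µM replicate 3 at 0.0382) and for 7 of 7 at day 5 (53.6%).

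The vehicle cultures themselves changed between the days. In DMSO, day 5 against day 1, 6 of 7 genes passed (24.5% of all genes), and FN1 did so without day 5 replicate 1 (-0.09, adjusted p = 0.0339). SNAI2 was higher at day 5 by 0.37 ± 0.079, KRT8 by 0.16 ± 0.023 and KRT18 by 0.12 ± 0.022, and CDH1 was -0.13 ± 0.019 (edgeR's quasi-likelihood test, adjusted p 0.00101, 9.31e-07, 6.73e-05 and 1.37e-06). EPCAM at -0.08 (0.0437) and VIM at -0.12 (0.0422) passed narrowly, and both calls were lost with total count scaling (0.136 and 0.095), without the low-count filter (0.107 and 0.064), in the fit of the compared groups (0.0681 and 0.095), for VIM with DESeq2 (0.0502), and in 4 and 5 of the 6 fits that left out 1 library, with values of -0.05 for EPCAM (0.28) and -0.07 for VIM (0.285) without day 1 replicate 1. The EPCAM call was also lost without day 1 replicate 2 (0.0798) and day 5 replicates 2 (0.164) and 3 (0.111), and the VIM call without day 1 replicate 3 (0.072) and day 5 replicates 1 (0.0699), 2 (0.0932) and 3 (0.0939).

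**Figure D5:**
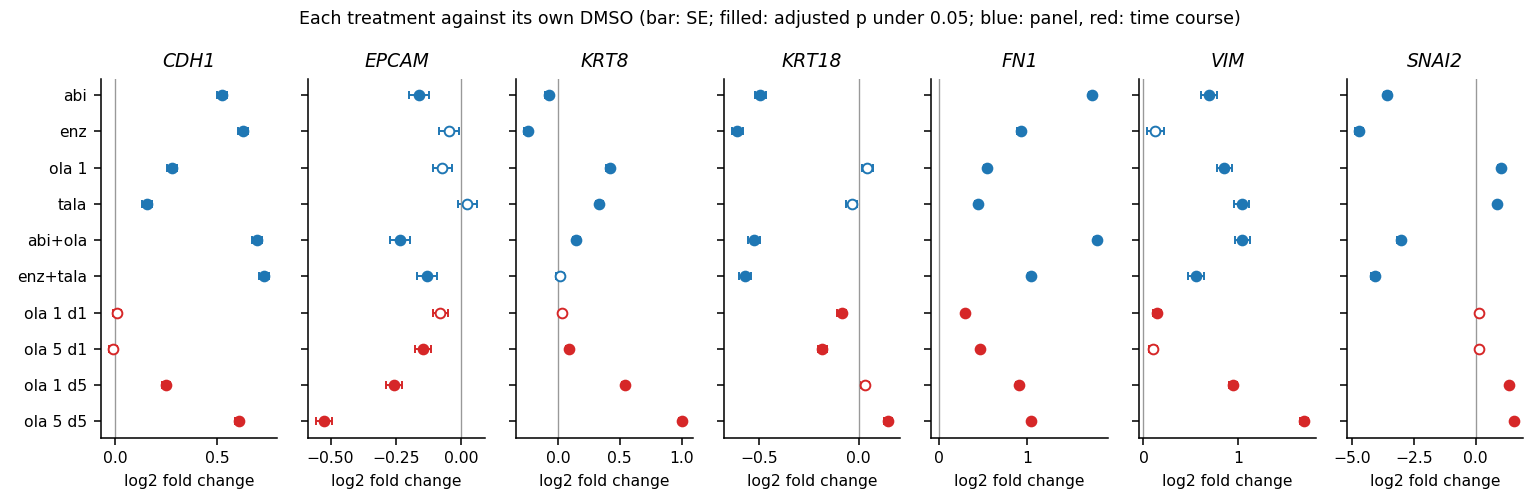
Log2 fold change against the matching DMSO group (x axes, each gene on its own scale, with a vertical line at 0) for the 7 measurable genes in 10 comparisons (rows), the 6 panel treatments in blue and the 4 olaparib groups of the time course in red. Bars are SE, and filled points are past an adjusted p of 0.05. FN1 lies to the right of 0 throughout, KRT18 and SNAI2 lie to the left wherever an ARPi was given, and SNAI2 lies to the right with PARPi alone at day 5.

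Olaparib at 1 µM for 5 days was measured in both experiments, which allows a check of size between them. The effects passed a test of their difference for 2 of 7 genes, where 1.94% of all genes did. FN1 rose less in the panel, 0.54 against 0.91, a difference of -0.38 ± 0.049 (adjusted p = 2.73e-05, edgeR's quasi-likelihood test over all 39 libraries). For KRT8 the effects were 0.42 and 0.54, a difference of -0.14 ± 0.038 (0.0388) that was lost with RLE scaling (0.0543), without the low-count filter (0.0867) and without any 1 of 8 of the 12 libraries: time-course DMSO 1 (0.146), 2 (0.0685) or 3 (0.051), time-course olaparib 1 (0.112) or 3 (0.0818), panel DMSO B (0.096), or panel olaparib B (0.0978) or C (0.072). The EPCAM effects, -0.07 and -0.26, differed by 0.17 ± 0.049 (0.0502), which passed with RLE scaling (0.0408), total count scaling (0.037), DESeq2 (0.0124), the fit of these groups alone (0.0376) and without time-course olaparib replicate 1 (0.0411). SNAI2 passed without the low-count filter (-0.34, 0.0163) and without panel DMSO replicate C (-0.41, 0.0473).

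Other genes of the same programmes were read from lists written for this purpose. Of 36 matrix genes 22 passed the low-count filter in the panel, and with abiraterone 13 were higher and 5 lower, with a median log2 fold change of 0.73, while 25.8% of all genes were higher, 27.1% lower, and the median was 0.000297. With enzalutamide 15 were higher and 4 lower (27% and 26.3% of all genes), and with olaparib 7 and 2 (19.6% and 16%). Of 24 cytoskeletal and contractile genes of mesenchymal cells 15 were tested, and 9 were higher and 0 lower with abiraterone, 6 and 1 with enzalutamide, and 6 and 0 with olaparib. These counts and the median include genes with few counts in DMSO, which passed the filter mainly through groups where they are high: 6 of the 22 matrix genes and 3 of the 15 contractile genes averaged under 10 counts in DMSO. Of the other 16 matrix genes 8 were higher and 5 lower with abiraterone, 9 and 4 with enzalutamide and 5 and 2 with olaparib, and of the other 12 contractile genes 7 and 0, 4 and 1, and 5 and 0. The epithelial junction list moved in both directions: of its 29 tested genes 14 were higher and 8 lower with abiraterone, and 9 higher and 5 lower with olaparib. Under total count scaling the share of called genes that were higher, over all genes, was 60% with abiraterone in place of 48.7% and 43% with olaparib in place of 55.1%, and the matrix counts became 13 and 4 with abiraterone and 7 and 2 with olaparib.

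Single genes show what moved. Among matrix genes COL5A1, a fibrillar collagen chain, had 0 to 10 counts per DMSO library, 97 to 131 with abiraterone, 78 to 112 with enzalutamide and 8 to 21 with olaparib. LOX, which cross-links collagen, went the other way, from 19.3 CPM in DMSO to 1.54 CPM with abiraterone and 1.5 CPM with enzalutamide. COL5A2 rose by 2.14 ± 0.22 with abiraterone and was 0.11 with olaparib, which did not pass. Among contractile genes ACTA2, smooth muscle actin, had 4 to 8 counts per DMSO library, 17 to 37 with abiraterone, 38 to 46 with olaparib and 87 to 107 with both drugs. CALD1, an actin-binding protein with far more RNA, was at 435 CPM in DMSO, 968 CPM with abiraterone and 468 CPM with olaparib. MYL9, a myosin light chain, rose by 1.25 ± 0.2 with abiraterone and was 0.28 with olaparib, which did not pass.

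In the junction list CDH3 (P-cadherin), OCLN (occludin, of tight junctions) and LLGL2 (a polarity protein) rose with both ARPi. CDH3 was at 16.6 CPM in DMSO, 43.1 CPM with abiraterone and 50.6 CPM with enzalutamide. OCLN was at 39.1, 117 and 112 CPM in the same groups, and fell with olaparib by 0.28 ± 0.044 on the log2 scale. Of 12 other epithelial keratins 4 were tested, with 1 higher and 3 lower with abiraterone (25.8% and 27.1% of all genes) and 3 higher and 0 lower with olaparib (19.6% and 16%). KRT15, 1 of these 4, averaged under 10 counts in DMSO. Of the other 3 genes 1 was higher and 2 lower with abiraterone, and 3 and 0 with olaparib. KRT19, a partner of KRT8, followed KRT18 with the ARPi (23 CPM in DMSO, 13.3 CPM with abiraterone, 10.3 CPM with enzalutamide) and followed KRT8 with olaparib (30.2 CPM). KRT80 was at 1.18 CPM in DMSO and rose to 10.6 CPM with abiraterone.

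Among epithelial regulators, of 16 tested 6 were higher and 6 lower with abiraterone, where 25.8% of all genes were higher and 27.1% lower. ELF3 and ELF5, epithelial ETS factors, rose by 1.74 ± 0.071 and 1.07 ± 0.06 with abiraterone, while SPDEF, the prostate ETS factor, fell by 1.39 ± 0.039. Among mesenchymal regulators 13 were tested, and 5 were higher and 1 lower with abiraterone, against the same shares. With olaparib 3 were higher and 3 lower (19.6% and 16% of all genes). FOXC1, KLF8 and SNAI3 averaged under 10 counts in DMSO, and none of them passed the test with either drug. The member that fell with abiraterone was MAF, a leucine zipper factor, which took the course of SNAI2: 37.3 CPM in DMSO, 3.19 CPM with abiraterone, 1.66 CPM with enzalutamide, 116 CPM with olaparib and 105 CPM with talazoparib. SOX4 rose by 1.68 ± 0.059 with abiraterone and 0.82 ± 0.059 with olaparib, and SOX9 by 0.40 ± 0.12 and 0.99 ± 0.12. Of 36 genes of TGF-beta and BMP signaling, a pathway that can induce SNAI2 and FN1, 29 were tested, and with abiraterone 18 were higher and 4 lower (25.8% and 27.1% of all genes), and with olaparib 10 and 2 (19.6% and 16%). With total count scaling these counts were 21 and 2 with abiraterone and 7 and 4 with olaparib. BMPR1B, a BMP receptor, fell from 38.6 CPM in DMSO to 4.26 CPM with abiraterone, while the BMP target ID1 rose from 19.8 to 49.3 CPM and ID4 by 1.97 ± 0.2 on the log2 scale.

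Across the 13 group means of log2 CPM, each measurable gene was set beside 13203 other genes. The genes with the highest Pearson correlation to SNAI2 were RHOU (0.997), TUT7 (0.995) and EDEM3 (0.994). For KRT18 they included DCAF6 (0.99) and MTMR9 (0.988). For KRT8 they were CRELD1 (0.989), EPHX2 (0.988) and CD151 (0.988), and for EPCAM FBL (0.986), MEST (0.979) and E2F6 (0.971). For CDH1 they were TMEM132A (0.981), UNC5B (0.979) and ADAM15 (0.978), for FN1 CYP1A1 (0.977), ARHGAP42 (0.968) and KCTD2 (0.95), and for VIM CCDC78 (0.975), H2BC18 (0.975) and ARRDC4 (0.974). Among the 7 genes themselves, SNAI2 and KRT18 were the most alike (0.949), followed by VIM with KRT8 (0.897) and CDH1 with FN1 (0.82), and EPCAM with VIM was the most opposed (-0.826). Each of these 3 most alike pairs joined an epithelial gene with a mesenchymal gene or factor. These values describe 13 points from 2 experiments, in which groups of an experiment were treated alongside the same DMSO cultures and libraries of a group share a treatment.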

How the data were processed

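RNA of C4-2B cells was measured in 39 libraries of 13 groups, grouped by their titles. Per the labels and the study's methods, stranded libraries were sequenced on a NovaSeqX Plus, reads were trimmed (Trim Galore), aligned to GRCh38 (STAR) and quantified per gene (Salmon, GENCODE). The authors deposited the estimated counts as whole numbers without normalization, and how they were rounded is not described. Symbols, coordinates and transcript lengths were taken from an earlier GENCODE release on the same build, which matched 62666 of 63187 IDs. Genes that share reads with near-identical copies were counted by Salmon's assignment.

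Counts were fitted with edgeR 4.0.16 in R 4.3.3 (TMM, filterByExpr by group, robust quasi-likelihood test, Benjamini-Hochberg over all genes tested, threshold 0.05). All libraries of an experiment entered 1 fit without covariates, and both experiments entered 1 fit of 39 libraries where they were compared. SE is the log2 fold change divided by the square root of F. The script was tested on simulated counts. Totals of 26932205 to 49833473 counts per library limit precision for genes of few counts. Alternatives were RLE and total count scaling, no low-count filter, DESeq2 1.42.0 (Wald test, local fit), fits of the compared groups alone, a replicate block, and leaving out each library.

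The 10 genes and the lists were chosen with earlier results of these data known. Named list genes are the 3 per list with the largest mean absolute log2 fold change over the 6 panel comparisons with DMSO, among those past the threshold in at least 1 and with a mean of 100 counts in the highest panel group, and KLK3 and CDKN1A check the treatments. Likeness was taken over genes with that count minimum, with a pseudocount of 0.1 CPM. Per-kilobase levels use the canonical transcript. Other assays of the study were not analysed here. A few genes that these rules name are not reported here.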

Additional observations from a re-analysis of the deposited data

Results flagged for a closer look

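Effects of the same contrast differed between days, drug contexts or experiments for the following genes, by edgeR's quasi-likelihood test of the difference itself. Between day 5 and day 1, the log2 effect of 1 µM olaparib differed by 1.23 for SNAI2, 0.803 for VIM, 0.609 for FN1, 0.505 for KRT8, 0.242 for CDH1, 0.115 for KRT18 and -0.179 for EPCAM (adjusted p from 3.38e-15 for KRT8 to 0.00383 for KRT18). The effect of 5 µM olaparib differed by 1.60 for VIM, 1.39 for SNAI2, 0.91 for KRT8, 0.618 for CDH1, 0.581 for FN1, 0.329 for KRT18 and -0.377 for EPCAM (from 4.96e-24 for KRT8 to 1.21e-09 for EPCAM). Both sets rest on the same DMSO libraries at each day.

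The effect of olaparib differed with and without abiraterone by -0.504 for VIM (adjusted p = 0.00544), -0.488 for FN1 (1.17e-07), -0.198 for KRT8 (0.000957) and -0.11 for CDH1 (0.0381). The effect of talazoparib differed with and without enzalutamide by -0.612 for VIM (0.00123) and -0.315 for FN1 (7.28e-05). Between the panel and the time course, the effect of 1 µM olaparib at day 5 differed by -0.381 for FN1 (2.73e-05) and -0.138 for KRT8 (0.0388). Single outlying libraries were not tested.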

How the results depend on the processing

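Over 2219 refitted values of the 7 genes, 2073 kept direction and side of the threshold, 76 calls were lost, 37 were gained and 33 changed sign, none of the last among values past the threshold as reported. The count of genes past the threshold between talazoparib and olaparib (1) was 2 without the low-count filter, 4 with DESeq2, 2 with the replicate block and 1 to 3 on leaving out 1 library. That of the panel against the time course (2) was 1 to 3 on leaving out 1 library. In the latter comparison EPCAM was added with RLE scaling, total count scaling, DESeq2 and the fit of the compared groups. SNAI2 was added without the low-count filter, and KRT8 was lost with RLE scaling and without that filter. Sign changes, all of differences that had not passed the test, were as follows on the log2 scale. With total count scaling EPCAM was 0.0064 with enzalutamide, -0.023 with talazoparib and 0.014 in the abiraterone by olaparib interaction, and CDH1 was 0.037 with 5 µM olaparib at day 1 and 0.0025 between doses at day 1. In that interaction EPCAM was also 0.00049 with RLE scaling, 0.00025 with DESeq2 and 0.0088 in the fit of the compared groups. KRT18, panel against time course, was 0.0029 with RLE scaling and 0.0031 with DESeq2. Leaving out 1 library gave -0.00091 to 0.23 for VIM with enzalutamide, -0.029 to 0.044 for EPCAM with talazoparib, -0.00296 to 0.043 for KRT8 with enzalutamide plus talazoparib and -0.0188 to 0.027 for EPCAM in the abiraterone by olaparib interaction. In the enzalutamide by talazoparib interaction it gave -0.53 to 0.059 for SNAI2 and -0.068 to 0.0015 for CDH1. At day 1 it gave -0.016 to 0.027 for CDH1 with 1 µM olaparib, and between doses -0.034 to 0.091 for SNAI2 and -0.0395 to 0.0044 for CDH1. For the panel against the time course it gave -0.011 to 0.026 for CDH1 and -0.025 to 0.014 for KRT18. The cause was not tested.

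No shared deviation of same-numbered libraries was detected: their deviations correlated at -0.00628 on average in the panel (-0.0686 to 0.0636, 0 of 63 pairs over 0.1) and -0.00599 in the time course (-0.133 to 0.116, 2 of 45). With 3 libraries per group, this check cannot show whether same-numbered libraries were cultured or handled together. With the replicate block, FN1 between talazoparib and olaparib was gained (adjusted p = 0.0496, edgeR's quasi-likelihood test) and SNAI2 between enzalutamide plus talazoparib and enzalutamide was lost (0.0522), and no other call changed. Depth limits CDH2, TWIST1 and ZEB1, whose 0 to 10 counts per library cannot show a fall or a small change. No treatment raised any of them above 10 counts in a library.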
